A study of Mus musculus with 3 samples.

Results

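The genes Bhlhe40 and Bhlhe41, which encode the repressors DEC1 and DEC2, held 5 of the 2127 CLK and BMAL1 binding sites in a ChIP-seq study of mouse liver. The 5 sites were chosen by gene name, as the peaks that the authors' table assigns to either gene, with the matching peaks of the separate CLK and BMAL1 peak lists. Bhlhe41 had 3 of them, all CLK:BMAL1 (bound by CLK and by BMAL1), and Bhlhe40 had 2, both BMAL1 only. The chromatin came from liver of adult C57BL/6 mice of 3 to 6 months, entrained to 12 h light and 12 h dark and taken at ZT8, which is 8 h after lights on. The labels name no mutation or other treatment, nor the number of animals. There was 1 library for each antibody and 1 Input library, all made from a single liver extract, so no value has a replicate, no difference was tested, and both peak lists share the same Input. Intervals in parentheses are 95% intervals. They cover the error of counting alone and ignore that PCR can copy a molecule.

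CLK (CLOCK) and BMAL1 form the heterodimer that drives the positive arm of the mammalian clock by binding e-boxes, short DNA elements with the core CACGTG. DEC1 and DEC2 are basic helix-loop-helix repressors with an Orange domain that bind the same kind of element, compete with the heterodimer and repress its targets. Their own genes are known targets of the heterodimer, which closes a feedback loop beside those of the PER and CRY proteins and of REV-ERB.

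The sequences of the sites show which of them carried the canonical element near the BMAL1 summit, the position of highest tag density. The bases are the + strand of chromosome 6 in NCBIM37 (mm9), and capitals mark each CACGTG and each hexamer that differs from it at 1 base. They run 60 bases to either side of the BMAL1 summit, except at the start site of Bhlhe41. There the 100 bases just before the GENCODE M1 transcript are shown. The BMAL1 summit of that site, 55 bp inside the transcript, lies outside those bases, as does the hexamer CACGCG 32 bp from it. Bhlhe40 lies on the + strand and Bhlhe41 on the - strand. The last line is a CLK:BMAL1 site close to Bhlhe40 that the table gives to the transcript AK042445, described further on.
Bhlhe41 upstream site, chr6:145814847-145814967: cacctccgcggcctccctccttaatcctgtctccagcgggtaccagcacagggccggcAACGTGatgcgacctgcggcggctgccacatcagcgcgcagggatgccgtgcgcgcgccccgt
Bhlhe41 start site, chr6:145814079-145814178: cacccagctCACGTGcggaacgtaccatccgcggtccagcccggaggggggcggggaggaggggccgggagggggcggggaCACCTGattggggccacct
Bhlhe41 downstream site, chr6:145804336-145804456: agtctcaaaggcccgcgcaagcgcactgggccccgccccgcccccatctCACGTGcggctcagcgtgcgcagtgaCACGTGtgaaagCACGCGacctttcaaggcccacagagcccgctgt
Bhlhe40 start site, chr6:108610363-108610483: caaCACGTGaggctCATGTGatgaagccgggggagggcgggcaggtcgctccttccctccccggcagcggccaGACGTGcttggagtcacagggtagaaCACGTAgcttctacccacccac
Bhlhe40 downstream site, chr6:108618470-108618590: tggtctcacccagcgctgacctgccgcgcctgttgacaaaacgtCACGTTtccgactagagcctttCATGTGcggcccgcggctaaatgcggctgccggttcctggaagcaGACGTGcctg
AK042445 site, chr6:108609412-108609532: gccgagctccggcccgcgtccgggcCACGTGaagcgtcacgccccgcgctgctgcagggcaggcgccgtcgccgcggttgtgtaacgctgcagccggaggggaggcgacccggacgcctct

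At Bhlhe41 the strongest site lay upstream of the gene. Its BMAL1 peak (chr6:145814456-145815541) held 144 tags (interval 121 to 169.5), with a fold enrichment of 29.6 over the local Input and a score of 876.8, where a score equals -10 log10 of the p-value from the MACS peak caller. It ranked 7 of 1578 BMAL1 peaks by score and 5 by fold enrichment. The CLK peak there held 49 tags (36.3 to 64.8) and had a fold enrichment of 11.5 and a score of 165, rank 35 of the 759 CLK peaks. The summit lay 829 bp before the GENCODE M1 start of Bhlhe41, between genes, and 1047 bp before the start used in the table, since the 2 annotations place that start 218 bp apart.

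The second Bhlhe41 site covered the start of the gene itself (chr6:145813710-145814357). BMAL1 gave 51 tags (38.0 to 67.1), a fold enrichment of 22.1 and a score of 229, and CLK gave 26 tags (17.0 to 38.1), a fold enrichment of 10.6 and a score of 65.6. Its BMAL1 summit fell in the 5' UTR of the GENCODE M1 transcript, 55 bp after the start. In BMAL1 fold enrichment this site stood higher, at rank 15, than in score, at rank 46.

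The third site lay beyond the other end of the gene (chr6:145804134-145804703), 2367 bp past the GENCODE M1 gene end and 9682 bp from the start. It gave 42 tags in each library (30.3 to 56.8), with a BMAL1 fold enrichment of 10.7 and a CLK fold enrichment of 8.87. Its BMAL1 score of 122 was the lowest of the 3, at rank 158, whereas its CLK score of 106, at rank 85, was higher than that of the start site. The MACS FDR of the CLK peaks was 8.57% at the upstream site, 5.12% at the start and 4.71% downstream, so the CLK peak of highest score had the highest FDR.

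At Bhlhe40 the BMAL1 peak at the start of the gene (chr6:108610116-108610987) held 57 tags (43.2 to 73.9), with a fold enrichment of 9.47, a score of 126 and an FDR of 0.66%. Its summit was 200 bp before the start site, in sequence that GENCODE M1 also gives to the long noncoding RNA 0610040F04Rik on the other strand. By score it ranked 152 of all BMAL1 peaks and 53 of the 1367 that no CLK peak overlapped. The downstream peak (chr6:108618184-108618773) was 1611 bp past the gene end, with its summit 7907 bp from the start and between genes, and held 39 tags (27.7 to 53.3). It was the weakest of the 5 sites, with a fold enrichment of 8.25, a score of 70.2, rank 489 and an FDR of 2.04%.

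The CLK:BMAL1 sites of Bhlhe41 had a higher mean BMAL1 fold enrichment than the BMAL1 only sites of Bhlhe40, 20.8 against 8.86, a ratio of 2.35. The classes differed in the same direction over the whole BMAL1 list, so this direction was not particular to these genes. Median fold enrichment there was 10.65 for peaks that a CLK peak overlapped and 6.76 for the rest. The 3 Bhlhe41 peaks held 237 tags over 2304 bp and the 2 Bhlhe40 peaks 96 tags over 1462 bp, and these sums, with a ratio of 2.47 (1.94 to 3.16), grow with the number and width of the peaks called. The mean was 79.0 against 48.0 tags for each site, a ratio of 1.65, and by tags per kb of peak the ratio was 1.45. The upstream site carried most of the difference. Without it the other Bhlhe41 sites held 93 tags, and the ratio of tags was 0.969 (0.721 to 1.30) although the ratio of mean fold enrichment was 1.85. The start sites of the 2 genes held 51 and 57 tags, a ratio of 0.895 (0.601 to 1.33), while their fold enrichments were 22.1 and 9.47. The downstream sites held 42 and 39 tags, a ratio of 1.08 (0.680 to 1.71). Counting error alone therefore covered the difference in tags at the start and downstream sites, and did not cover that between the Bhlhe41 upstream site and either Bhlhe40 site, where the ratios were 2.53 (1.85 to 3.50) and 3.69 (2.58 to 5.40).

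Sharing with CLK followed the BMAL1 score across the list as a whole. Of all BMAL1 peaks 13.4% overlapped a CLK peak by at least 1 bp, and the share was 56.2% at a BMAL1 score of 100 or more and 5.95% below it. Of the 5 sites, 4 had a score of at least 100, as did 233 of all 1578 BMAL1 peaks. The 3 Bhlhe41 sites among these 4 were shared while the Bhlhe40 start site was not. The Bhlhe41 downstream site and the Bhlhe40 start site were close in rank, 158 and 152, and differed in class. Among the 100 BMAL1 peaks within 50 ranks of each, 40 and 41 were shared, so either class was common at that strength. Within 50 ranks of the Bhlhe40 downstream site 9 of 98 peaks were shared. A BMAL1 only site is one at which no CLK peak was called, and the lists give no CLK tag count there. The CLK peaks that were called held at least 16 tags. Extending every peak by 500 bp made 4 of the 5 sites shared, the added one being the Bhlhe40 start site, which then met the CLK peak of the AK042445 site described next. With a score of at least 100 asked of both lists, 2 sites were shared, the upstream and downstream sites of Bhlhe41.

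**Figure D1:**
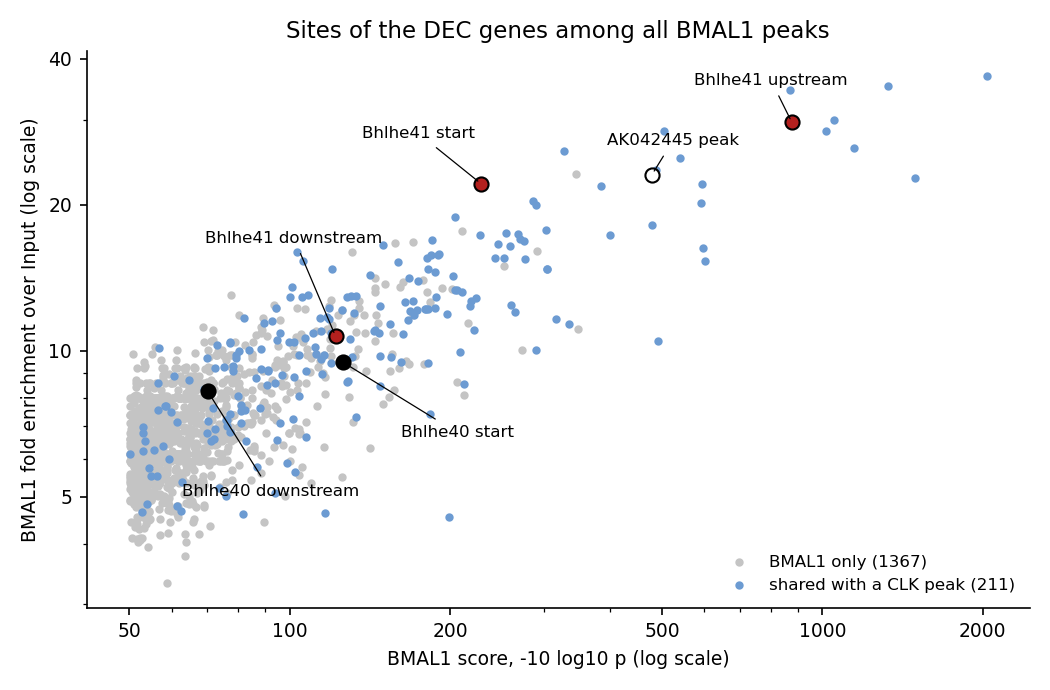
BMAL1 score (x axis, -10 log10 p, log scale) against BMAL1 fold enrichment over Input (y axis, log scale) for the 1578 BMAL1 peaks, grey where BMAL1 only and blue where a CLK peak overlaps. Red points are the Bhlhe41 sites, black points the Bhlhe40 sites and the white point the AK042445 site; the Bhlhe41 downstream site (score 122) and the Bhlhe40 start site (score 126) lie side by side in a range where both classes are mixed.

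A CLK:BMAL1 peak that the table does not assign to Bhlhe40 lay next to it. This peak was given to AK042445, a transcript on the - strand whose own start is 59 bp from the BMAL1 summit. In GENCODE M1 that summit lies within the long noncoding RNA 0610040F04Rik, also on the - strand. The summit was 1151 bp before the start of Bhlhe40, and in GENCODE M1 no protein-coding start site was nearer. Its BMAL1 peak (chr6:108609083-108609877) held 101 tags (82.3 to 123), with a fold enrichment of 23.1, a score of 479 and rank 18. The CLK peak held 54 tags (40.6 to 70.5), with a fold enrichment of 10.3, a score of 145 and an FDR of 7.14%. Only 238 bp separated its BMAL1 peak from that of the Bhlhe40 start site, and 341 bp separated the CLK peak from the latter. It was found after the values of the loci had been seen, and is set beside the 5 sites and not counted among them.

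With this site placed at Bhlhe40 by the nearest protein-coding start, the 2 loci held 3 BMAL1 peaks each, 4 of the 6 sites were shared, and Bhlhe40 was no longer a gene of BMAL1 only sites. At an FDR of at most 5% the CLK peak of the AK042445 site would not count, nor would those of the Bhlhe41 upstream and start sites. The ratio of mean BMAL1 fold enrichment between the genes became 1.53, and the summed tags, now over 3 peaks each, were 237 and 197, a ratio of 1.20 (0.992 to 1.46). The upstream site of Bhlhe41 still held more BMAL1 tags than the AK042445 site, with a ratio of 1.43 (1.10 to 1.86), but the CLK tags of the same pair gave 0.907 (0.604 to 1.36). Which transcript the AK042445 site acts on cannot be told from binding data.

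The layouts of the 2 loci were alike in spacing and in the order of fold enrichment. The upstream and start summits were 951 bp apart at Bhlhe40, counting the AK042445 site, and 884 bp apart at Bhlhe41. From the start summit to the downstream summit there were 8107 bp and 9627 bp. In each locus, with the AK042445 site counted at Bhlhe40, BMAL1 fold enrichment was highest upstream, lower at the start and lowest downstream. By BMAL1 tags per kb of peak this order held at Bhlhe41 (132.6, 78.7 and 73.7). At Bhlhe40 the values were 127, 65.4 and 66.1, so the start and downstream sites were about level. Summits within 1000 bp of each other were uncommon in this list, with 9 such neighbouring pairs among all BMAL1 peaks. When BMAL1 peaks were chained wherever at most 10000 bp separated them, 1533 groups resulted and 6 of these had 3 peaks, the largest number in any group. The 2 DEC loci were 2 of the 6, with widest gaps of 7196 bp at Bhlhe40, again counting the AK042445 site, and 9006 bp at Bhlhe41. The others were at Nr1d1 (REV-ERBα), at Dbp, a clock output activator, at Alb, which encodes albumin, and at Grik4 with Tbcel. The score of the strongest BMAL1 peak was 2037 at Nr1d1 and 1052 at Dbp, but only 82.3 at Alb and 103 at Grik4 with Tbcel. Assigned by the table, 4 of 188 named genes with a CLK:BMAL1 peak had 3 or more, and these were Nr1d1, Dbp, Bhlhe41 and Alb.

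CLK and BMAL1 did not stand in one ratio over the Bhlhe41 sites. In RPM, tags for each 1000000 left after removal of duplicates, the upstream site had 1.48 for CLK and 5.71 for BMAL1, a CLK to BMAL1 ratio of 0.260 (0.184 to 0.361). The start site had a ratio of 0.389 (0.233 to 0.636) and the downstream site a ratio of 0.763 (0.485 to 1.20). The interval of the upstream site did not overlap that of the downstream site. Over all 212 pairs of overlapping CLK and BMAL1 peaks the median ratio was 0.645, with quartiles at 0.502 and 0.822. No pair had a lower ratio than the Bhlhe41 upstream site. The start site had 19 pairs below it and the downstream site 143. These ranks are over pairs of every BMAL1 level. Of the 3 sites, the upstream one had the most BMAL1 (5.71 RPM) and the downstream one the least (1.67 RPM). Pairs of like BMAL1 level were not set apart, so whether the ratio follows that level was not tested. A pair at Nr1d1, with 130 CLK and 382 BMAL1 tags, had the same ratio as the upstream site to 3 digits. That BMAL1 peak, 2460 bp wide, also overlapped another CLK peak, of 138 tags. Each of its pairs therefore set all of its BMAL1 tags against only part of the CLK tags there. The AK042445 site, with 0.408 (0.288 to 0.573), had 25 pairs below it. Tag counts are sums over each list's own peak, which differ in width, and the 2 antibodies were not calibrated against each other, so neither the level of a ratio nor small steps in the order can be read. The upstream peak was 1086 bp wide for BMAL1 and 614 bp for CLK, and the downstream peak 570 bp and 511 bp. Per kb of peak the ratios were 0.459 upstream, 0.524 at the start and 0.851 downstream, with a median of 0.818 over all pairs, and 3, 14 and 122 pairs were lower. By fold enrichment they were 0.387, 0.479 and 0.827, with 12, 34 and 142 pairs lower. The order of the 3 Bhlhe41 sites was the same on each of these scales, whereas the AK042445 site was above the Bhlhe41 start site by tags and below it by fold enrichment (0.445).

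**Figure D2:**
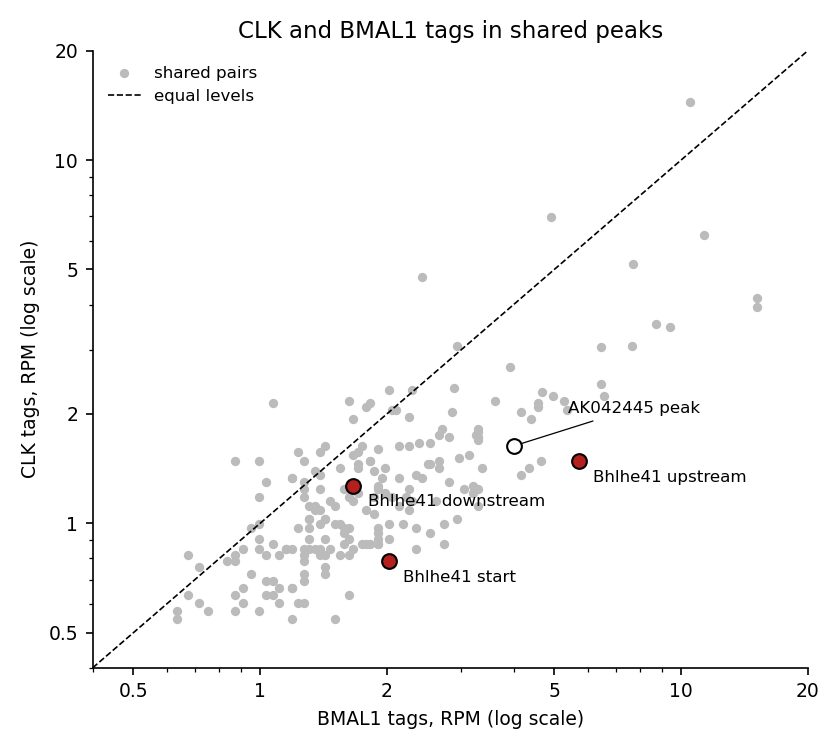
BMAL1 tags (x axis, RPM) against CLK tags (y axis, RPM), both on log scales, for the 212 pairs of overlapping peaks, with 1 library per axis and the dashed line at equal levels. The Bhlhe41 upstream site, at 5.71 and 1.48, lies at the lower right edge of the cloud, and the Bhlhe41 downstream site, at 1.67 and 1.27, lies near its middle.

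The CLK and BMAL1 summits were 9 bp apart at the Bhlhe41 downstream site and 12 bp apart at its start site, both under the median of 21 bp over all pairs. At the upstream site they were 85 bp apart, a longer distance than in 184 of the 212 pairs. At the AK042445 site they were 28 bp apart.

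Distances of a hexamer are to its first base on the + strand. Of the 5 sites, 3 had CACGTG within 100 bp of the BMAL1 summit, where 27.4% of all BMAL1 peaks had one. These were the Bhlhe41 start site, the Bhlhe41 downstream site and the Bhlhe40 start site, so that each class had a site with the element and a site without it. With 5 sites it cannot be told whether the element goes with class. The Bhlhe41 downstream site had 2, at 11 bp and 15 bp to either side of the summit, and another 164 bp away, where 5.96% of BMAL1 peaks had 2 or more within 100 bp. The start sites had 1 each, 65 bp from the summit at Bhlhe41 and 57 bp at Bhlhe40. Both lay outside the transcript, on its upstream side, 257 bp from the first transcribed base at Bhlhe40 and at the edge of the GENCODE M1 transcript at Bhlhe41 (chr6:145814088-145814093, where the transcript begins at 145814078). The AK042445 site had 1, 35 bp from its BMAL1 summit and 7 bp from its CLK summit.

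The strongest site and the weakest site were those without the element near the summit. In the Bhlhe41 upstream peak the only CACGTG was 370 bp from the BMAL1 summit, and the hexamer AACGTG, 1 base from the e-box, was 2 bp from the BMAL1 summit. Another such hexamer, CACGTT, was 10 bp from the CLK summit of that site and 75 bp from the BMAL1 summit. The Bhlhe40 downstream peak had no CACGTG at all, the nearest being 391 bp from its summit and outside the peak. It had CATGTG at 6 bp and CACGTT at 16 bp. A hexamer of at most 1 mismatch was within 100 bp of the summit at all 5 sites and at 73.8% of all BMAL1 peaks.

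**Figure D3:**
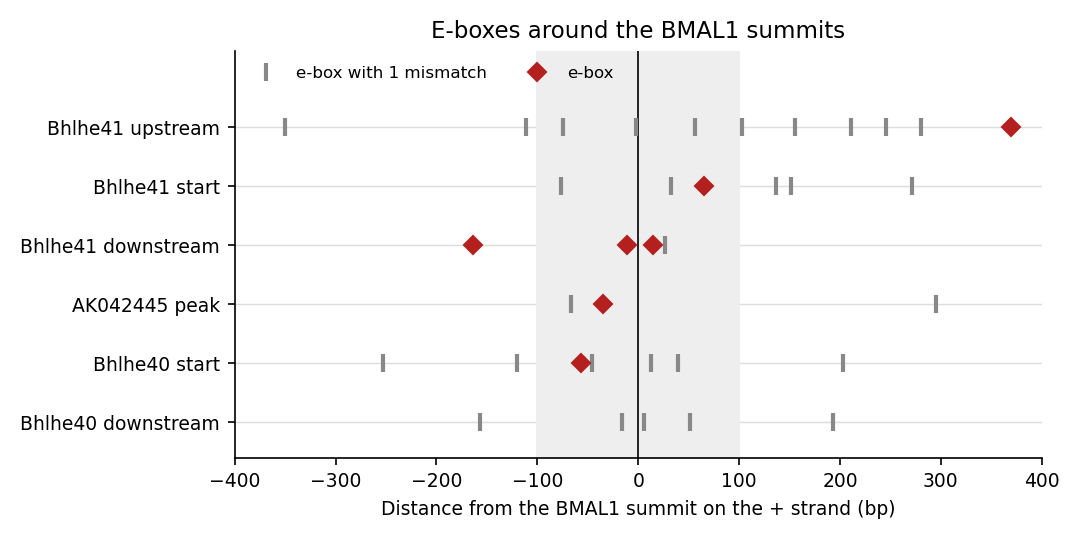
Positions of CACGTG (red diamonds) and of hexamers with 1 mismatch (grey ticks) along the x axis, in bp from the BMAL1 summit on the + strand, for the 5 sites and the AK042445 site in rows; the shaded band is 100 bp to either side. The Bhlhe41 downstream site has 2 diamonds in the band, the start sites and the AK042445 site have 1, and the Bhlhe41 upstream and Bhlhe40 downstream sites have none.

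Some e-boxes had a second hexamer close by. At the Bhlhe40 start site 5 bp separated CACGTG from CATGTG, and at the Bhlhe41 downstream site 6 bp separated CACGTG from CACGCG. A gap of 5 or 6 bp between CACGTG and such a hexamer was present in 2.15% of BMAL1 peaks. These gaps were taken from the sites themselves, so the share is no test of them. A gap of 6 or 7 bp, which the Bhlhe40 start site lacked, was present in 3.17%. The first of the Bhlhe41 downstream e-boxes and that of the Bhlhe41 start site lay in the same run of 11 bases, ctCACGTGcgg, on the + strand. This run was present within 100 bp of the summit in 2 of the 1578 BMAL1 peaks, which were these, and 5 times on chromosome 6 on either strand. It was the longest run found when all e-boxes in the peaks of both loci were compared in pairs. Its presence at these sites was therefore fixed by the choice.

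Over 10 kb to either side of the start site in the table there were 9 CACGTG at Bhlhe41 and 5 at Bhlhe40, or 4.50 and 2.50 for each 10 kb, and chromosome 6 had 1.01. Of the 14, 6 (42.9%, exact binomial interval 17.7% to 71.1%) lay in a BMAL1 peak assigned to the genes, 5 at Bhlhe41 and 1 at Bhlhe40, and 1 more lay in the AK042445 site. On the whole of chromosome 6, 57 of 14781 CACGTG (0.386%) lay in a BMAL1 peak, and the windows here were chosen around genes with peaks, so the shares are not like for like. The other 7 of the 14 e-boxes, 4 at Bhlhe41 and 3 at Bhlhe40, were in no called peak.

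All sites were rich in G and C. The window of 100 bp to either side of the BMAL1 summit was 71.6% G or C at the Bhlhe41 start site, 69.2% upstream and 65.2% downstream, and 65.7% and 65.2% at the Bhlhe40 start and downstream sites, where the median over all BMAL1 peaks was 52.2% (quartiles 48.8% and 58.2%) and over the shared ones 58.2% (52.7% and 66.7%). The Bhlhe41 downstream site lay within the quartiles of the shared peaks. The GC box GGGCGG, searched on both strands within 100 bp of the summit, was present 2 times at the Bhlhe41 start and downstream sites and 1 time at the Bhlhe40 start site, and in 17.0% of BMAL1 peaks. The nuclear receptor element AGGTCA was found at the Bhlhe40 downstream site and at no other of the 5, and in 15.9% of BMAL1 peaks. The D-box forms TTATGTAA (2.09% of BMAL1 peaks) and TTATGCAA (0.887%), the FOXA element TGTTTAC (3.30%) and the cAMP response element TGACGTCA (0.951%) were in none of these windows.

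Among 24 genes of the clock loops, 12 had at least 1 CLK:BMAL1 peak, 4 had BMAL1 peaks that were not shared and 8 had no peak assigned under their symbols. Of 22238 protein-coding symbols in GENCODE M1, 0.724% had a CLK:BMAL1 peak in the table and 6.7% had a peak of any class. The list was drawn up with earlier results of these data known, and clock genes are the known targets of the heterodimer. Bhlhe41 stood 6 of the 16 genes with a BMAL1 peak when ordered by the score of the strongest one, between the Period gene Per1 (1018) and Nr1d2 (870), which encodes REV-ERBβ. Nr1d1 (2037), Ciart (1492, listed as Gm129), Tef (1149) and Dbp (1052) were also above it. Bhlhe40 stood 13 with its score of 126, below the Cryptochrome gene Cry1 (219) and Per3 (202) and beside Nfil3 (125), the D-box repressor. Per2 (602), Cry2 (591) and the PAR bZIP gene Hlf (479) fell between the DEC genes. With the AK042445 site its score would have been 479, on a level with Hlf. Those below Bhlhe40 were Nfil3 and the ROR receptor genes Rorb (53.0) and Rora (50.6). Clock, Arntl (which encodes BMAL1) and Npas2, the genes of the positive arm, were among those with no assigned peak.

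**Figure D4:**
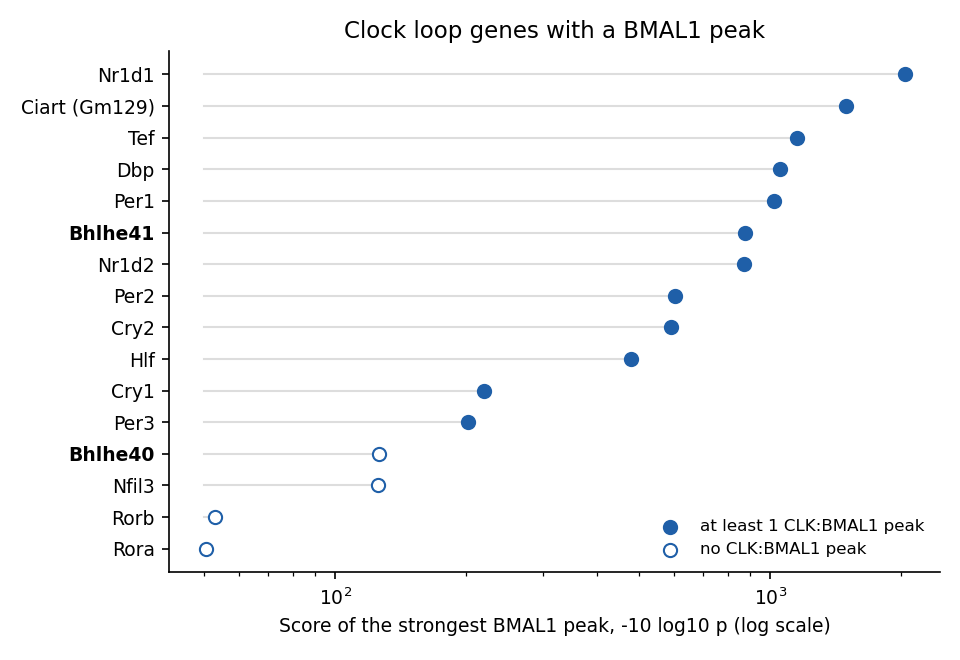
Score of the strongest BMAL1 peak (x axis, -10 log10 p, log scale, lines drawn from the calling cutoff of 50) for the 16 clock loop genes with a BMAL1 peak, filled where the gene has a CLK:BMAL1 peak. Bhlhe41, at 876.8, stands with Per1 and Nr1d2, and Bhlhe40, at 126, stands with Nfil3 among the open points.

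Within the bHLH-Orange family, which also holds the Hes and Hey repressors, 4 of 12 genes had a peak. Of these 4, 2 were the DEC genes that the family was chosen around, which leaves 2 of the other 10. Among all protein-coding symbols in GENCODE M1, 6.7% had a peak of any class and 0.724% a CLK:BMAL1 peak. Bhlhe41 was the 1 gene of the family with a CLK:BMAL1 peak. Hes1 had a BMAL1 only peak of score 71.1 and fold enrichment 5.55, and Hey2 had one of score 65.0 and fold enrichment 7.99. Both lay under the scores of the Bhlhe40 start site and of each Bhlhe41 site. The score of the Hes1 peak was 71.1 against 70.2 at the Bhlhe40 downstream site.

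In summed score, the genes most like Bhlhe41 (BMAL1 1227, CLK 337) among 188 named genes with a CLK:BMAL1 peak were Tef (1293 and 418), Nr1d2 (870 and 245) and AK036974 (671 and 316). Their distances on log2 axes of the 2 sums were 0.32, 0.68 and 0.88. The genes most like Bhlhe40, with a summed BMAL1 score of 196 over its 2 peaks, among the 67 genes with at least 2 BMAL1 only peaks and no CLK peak, were 3110082I17Rik (192), AK029768 (188) and Nfe2l2 (184), which encodes the stress response activator NRF2. Each likeness rests on 1 library for each antibody.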

How the data were processed

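CLK, BMAL1 and Input libraries (1 each, 36 nt reads, 15 PCR cycles) held 37371047, 28920754 and 18846303 mapped tags, of which 33057959, 25217144 and 18206506 were not duplicates. Per the submitters' processing notes CASAVA 1.6 and Bowtie were used with mm9. The authors called peaks with MACS (p cutoff 1e-05) for each ChIP library against the Input. The BMAL1 list as read here held 1578 peaks, slightly fewer than the paper reports. The deposited lists give a count of tags, a score of 10 times the negative log10 of p (so the cutoff is at 50), a fold enrichment as a ratio over local Input, an FDR in percent and positions. The deposited series table gives class and gene. All per-sample columns were matched to samples.

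Members were the table's rows for both genes, with peaks of either list that overlapped by at least 1 bp. Members and gene lists were chosen with earlier results of these data known. Named genes were the members, listed genes with a peak, and the 3 genes nearest each member in log2 summed score. Other genes named (those of the other 3-peak groups and 3 listed genes without a peak) were chosen after their values were seen. Motifs were read from NCBIM37 on both strands within 100 bp of the BMAL1 summit, and gene models from GENCODE M1. Tag intervals are exact Poisson, ratios of tags exact conditional binomial and shares Clopper-Pearson (scipy 1.17.1, pandas 2.3.3, Python 3.11.15), checked on simulated data. Alternatives covered overlap, score and FDR minimums, the measure of level, windows and gene assignment. The tissue label was not checked against expression here.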

Additional observations from a re-analysis of the deposited data

How the results depend on the processing

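With 1 library per antibody, each value rests on that library, and depth limits what a missing CLK call means. Of 26 alternatives, 11 moved a count by over 1.5 times, a ratio beyond the counting interval of the summed tags scaled to it, a share beyond its binomial interval or a distance beyond 1 SD of the 3 sites; 15 did not, among them counts of shared sites of 4 (peaks extended by 500 bp) and 2 (scores of 100 or more in each list). The count of shared sites was 3 and fell to 1, the Bhlhe41 downstream site, at an FDR of at most 5% in both lists. The share of all shared peaks that pass this limit is not given here. The CLK peak it removed at the Bhlhe41 upstream site had the highest score of the 3 CLK peaks and the highest FDR, 8.57%. The ratio of BMAL1 level between Bhlhe41 and Bhlhe40, 2.35 by mean fold enrichment, was 4.17 by score, 1.45 by tags per kb, 3.13 for the strongest sites and, as alternatives chosen after seeing the data, 1.65 by mean tags per site, 1.53 by the nearest protein-coding start and 0.969 by summed tags without the strongest Bhlhe41 site. The CLK to BMAL1 ratio at Bhlhe41, 0.377 in RPM, was 0.495 by fold enrichment and, also chosen after seeing the data, 0.578 by tags per kb. Sites with an e-box numbered 3 within 100 bp of the summit, 1 within 50 bp and 5 with 1 mismatch allowed. The cause of these shifts was not tested. No paired analysis was possible because each group has 1 library, although all 3 came from the same extract.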
